A study of Mus musculus with 9 samples.

Results

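The 8 genes described here encode secreted inhibitors of serine proteases: the Kazal-type genes Spink2, Spink5, Spink8, Spink10, Spink11, Spink12 and Spink14, and the Kunitz-type gene Spint4. They were taken by name, by a rule that uses no measured value, though the set was proposed with earlier results of these data known, and are 8 of the 32195 genes in the count table. The epididymis of untreated C57BL/6 mice (C57BL/6J in the study's methods) was dissected into caput (the head, which receives sperm from the testis), corpus (the body) and cauda (the tail, where sperm are stored), and single-cell RNA sequencing with unique molecular identifiers (UMIs) was run on each segment. Mice were 42 days old (P42) or 56 days old (P56). Tissue of 5 mice was pooled for each library, with 1 library per segment at P42 and 2 at P56 (P56_1 and P56_2), 9 libraries in all. No group carried a transgene or a treatment, and since P42 is 1 pool, age and pool of mice cannot be told apart.

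Kazal and Kunitz domains are compact folds held together by disulfide bonds, and an exposed loop sits in the active site of a serine protease and blocks it. In the epididymis, principal cells, the main secretory cells of the tubule, release such inhibitors into the lumen, where sperm mature and acquire coats of secreted proteins. Tubule segments differ in what they secrete, which makes the segment the natural axis along which to read these genes.

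The coding stretches of 3 members, from the first to the last in-frame cysteine codon, are shown so that the spacing of their cysteines can be compared, with the cysteine codons in capitals (GENCODE vM21 on GRCm38, coding strand). Spink2 lies at chr5:77205107-77211471 on the minus strand and has 4 coding exons, Spink8 at chr9:109812280-109826633 on the plus strand with 5, and Spint4 at chr2:164698501-164702453 on the plus strand with 3. The stretches cover codons 38 to 86 of 86 in Spink2, 44 to 96 of 105 in Spink8 and 16 to 91 of 159 in Spint4.
Spink2: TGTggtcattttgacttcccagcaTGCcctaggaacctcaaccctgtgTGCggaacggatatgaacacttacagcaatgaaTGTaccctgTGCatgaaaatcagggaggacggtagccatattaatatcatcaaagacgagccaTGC
Spink8: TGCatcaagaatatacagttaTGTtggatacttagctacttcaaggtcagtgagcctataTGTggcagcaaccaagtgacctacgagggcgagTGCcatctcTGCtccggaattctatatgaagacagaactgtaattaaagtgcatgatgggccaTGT
Spint4: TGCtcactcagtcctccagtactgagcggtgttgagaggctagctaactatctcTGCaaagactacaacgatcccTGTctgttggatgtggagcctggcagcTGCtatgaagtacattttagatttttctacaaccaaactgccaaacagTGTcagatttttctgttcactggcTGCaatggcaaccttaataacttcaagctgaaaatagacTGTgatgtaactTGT
Spink2 and Spink8 each carry 6 cysteine codons within 49 and 53 codons, and Spint4 has 8 within 76. The stretches were not cut to the Kazal or Kunitz domain, so they can hold cysteines outside it.

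Of 44869 barcodes, 41401 cells were used, and the cells of a library held between 18875260 and 40630716 UMIs. A total of 143 barcode sequences occurred in more than 1 library, on 381 barcodes (0.849% of all barcodes). Clusters were made without the 8 genes or their relatives and named from marker lists. Principal-like cells numbered 1691 to 3371 per library, and 2 clusters stayed unnamed (895 cells led by cell-cycle genes and 1643 led by immunoglobulin genes). Of the 1643 cells, 1088 came from corpus P56_2, and their median mitochondrial share was 28.1%. Unnamed cells made up 26.3% of corpus P56_2 and 1.17% to 7.66% of each other library. They are outside the principal-like values: in corpus P56_2 they had 583 CPM of Spint4 against 3281, and 171 CPM of Spink5 against 52.6. Of the 30 principal markers, 28 to 30 were detected in the principal-like cells of each library, with Cftr, which encodes a chloride channel, at 0 in the 3 cauda libraries and in corpus P56_2. The principal-like cells of cauda P42 stand apart: 95.27% of them belong to cluster 27, with 1611 cells from this library, 1178 from corpus P42 and 4 from the others. This cluster is led by 2300002M23Rik, Gm23935 and Rn7sk, which are no principal markers, and the share of ciliated markers enriched in it (0.470) was as high as that of principal markers (0.459). The summed ciliated markers themselves were low in the principal-like cells of the 3 cauda libraries, at 37.8, 48.7 and 57.7 CPM. The median of the cauda P42 cells was 1477 UMIs against 7123 and 7873 in the P56 cauda libraries, and the summed level of the 14 myoid and fibroblast markers, all detected, was 16989 CPM against 507 and 484. In the same cells the 30 principal markers summed to 16613 CPM, below the myoid and fibroblast sum, against 37743 and 41094 CPM at P56. These values go against the name for cauda P42, so "principal-like" stands there for the cluster rule alone, and each cauda value of P42 below rests on these cells. Cluster 27 also held 66.55% of the principal-like cells of corpus P42. Over all principal-like cells of corpus P42, the summed myoid and fibroblast markers were 1913 CPM against 263 and 241 CPM in the P56 corpus. The principal markers summed to 23254 against 37898 and 32609 CPM. No such sum was made for the cluster 27 cells alone. The doubt about the name therefore extends to the principal-like cells of corpus P42. Levels are CPM, the UMIs of a gene scaled by the total of the cells summed, given in the order P42, P56_1, P56_2, and each mean carries its SD over the 3 libraries.

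Among the other members, Spink12 and Spink14 have 7 cysteine codons, Spink11 has 8, Spink10 has 12 in 162 codons, and Spink5, a chain of many Kazal-type domains, has 61 in 1017. Spink5, Spink14, Spink12 and Spink11 are neighbours within 232943 bases of chromosome 18 (43963235 to 44196177), in a run of 8 protein-coding genes, and Spink14 starts 5367 bases from the end of Spink5. Spink10 lies apart on the same chromosome (62548911 to 62668070), its span overlapping Spink7, Spink13 and Gm36368 on the other strand without sharing an exon base. No 75-base window of the transcripts of the other 7 members was found in another gene, and 2 of 8276 windows of Spink10 were (0.024%).

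In principal-like cells, each of the 8 genes differed between segments (edgeR quasi-likelihood test, blocked on mouse pool, adjusted p from 1.07e-05 for Spink14 to 0.00461 for Spink8, range between segments of at least 1 log2 unit). The same rule called 34.1% of the 15774 genes tested, so a segment difference by itself was common. The pattern split into genes high in the caput (Spink2 and Spink12), 1 gene high in caput and corpus (Spink11), 1 high in the corpus (Spint4), genes high in corpus and cauda (Spink8 and Spink10), 1 gene found in the cauda (Spink14), and 1 gene high at both ends and low between them (Spink5). Pairwise, 6 members were called between corpus and caput (25.4% of genes), 7 between cauda and caput (25.6%) and 6 between cauda and corpus (12.6%). Without the P42 pool these counts were 6, 8 and 7, with 4890.0, 5266 and 2994 of 15656 genes called. Without P56_1 or P56_2, the call of Spink8 over the 3 segments was lost (adjusted p = 0.102 and 0.122, edgeR), as it was with DESeq2 on all 9 libraries (adjusted p = 0.058).

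**Figure D1:**
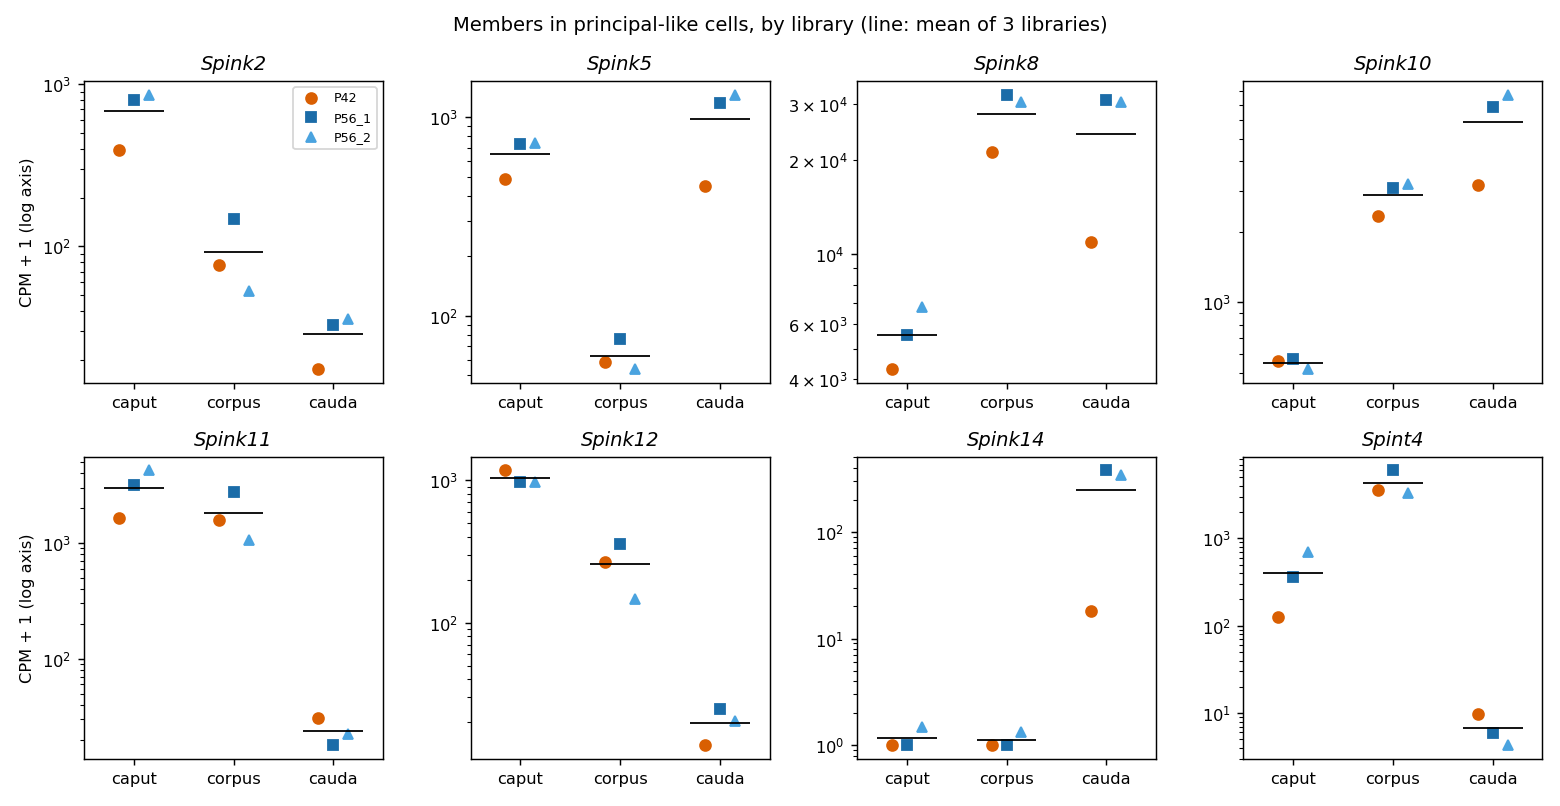
Level of each member in principal-like cells (CPM + 1 on a log axis) in caput, corpus and cauda, with 1 point per library (circle P42, square P56_1, triangle P56_2) and a line at the mean of the 3 libraries. Spink2, Spink11 and Spink12 lie lowest in the cauda, Spint4 is highest in the corpus, Spink14 exceeds 1 CPM in the 3 cauda libraries alone, and Spink5 has its low point in the corpus.

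Spink2, known for its role in the sperm acrosome, stood at 389, 802 and 859 CPM in the caput, 76.3, 147 and 51.8 CPM in the corpus, and 16.4, 31.9 and 34.8 CPM in the cauda. The 3 segments did not overlap, with means of 684 ± 256, 91.6 ± 49.2 and 27.7 ± 9.88 CPM (SD, n = 3). It was lower in corpus than caput by a log2 fold change of -2.78 ± 0.35 (SE, adjusted p = 0.00051), and lower again from corpus to cauda by -1.58 ± 0.34 (adjusted p = 0.0162). The second step was not called without P56_1 (-1.40, adjusted p = 0.229) or without the pool block (-1.50).

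Spink12 held 1167, 965 and 974 CPM in the caput, 263, 357 and 146 CPM in the corpus, and 12.8, 23.7 and 19.4 CPM in the cauda. Its segments were again fully separated, and its caput libraries were close to each other (mean 1035 ± 114 CPM, n = 3). Both steps down passed the test, by -2.01 ± 0.34 from caput to corpus (adjusted p = 0.00228) and -3.54 ± 0.36 from corpus to cauda (adjusted p = 0.000685).

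Spink11 reached 1628, 3167 and 4228 CPM in the caput and 1576, 2781 and 1059 CPM in the corpus, against 29.5, 16.9 and 21.2 CPM in the cauda. Caput and corpus overlapped, and their difference of -0.64 ± 0.40 was not called (adjusted p = 0.247). The cauda lay below both, by -6.80 ± 0.50 against the caput (adjusted p = 3.56e-05) and -6.17 ± 0.49 against the corpus (adjusted p = 0.000334).

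Spink8 was high throughout, with 4291, 5523 and 6789.6 CPM in the caput, 21091, 32142 and 30539 CPM in the corpus, and 10945, 30868 and 30515 CPM in the cauda. Each corpus and cauda library exceeded each caput library. The increase over the caput was 2.42 ± 0.42 in the corpus (adjusted p = 0.00274) and 2.26 ± 0.42 in the cauda (adjusted p = 0.00402). Both calls were lost when either P56 pool was left out (adjusted p from 0.0615 to 0.107), with values between 1.97 and 2.41. Corpus and cauda were not told apart (-0.16 ± 0.40, adjusted p = 0.831).

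Spink10 measured 558, 571 and 514 CPM in the caput, 2336, 3069 and 3197 CPM in the corpus, and 3167, 6811 and 7705 CPM in the cauda. The SD of its caput libraries was 29.7 CPM (n = 3) and that of its cauda libraries 2404 CPM (n = 3). In the cauda the P42 library was lowest and inside the corpus range. The corpus exceeded the caput by 2.43 ± 0.38 (adjusted p = 0.00163) and the cauda by 3.57 ± 0.40 (adjusted p = 0.000314). The step from corpus to cauda was 1.14 ± 0.37 and missed the threshold (adjusted p = 0.0727), but was 1.41 and called without P42 (adjusted p = 8.255e-05). On all 9 libraries it was also called with DESeq2 (1.15, adjusted p = 0.00624), without the expression filter (1.13, adjusted p = 0.00565), without library centring (1.30, adjusted p = 0.0092) and in cells with at least 2000 UMIs (1.20, adjusted p = 0.0264).

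Spink5, which encodes LEKTI, an inhibitor of kallikreins best known from skin, gave 489, 735 and 737 CPM in the caput, 57.6, 75.6 and 52.6 CPM in the corpus, and 451, 1184 and 1296 CPM in the cauda. The corpus lay far below both neighbours in each pool, by -3.27 ± 0.36 against the caput (adjusted p = 0.000271), and the cauda exceeded the corpus by 4.02 ± 0.38 (adjusted p = 0.000518). In the cauda the P42 library lay below the caput range and both P56 libraries above it, and the cauda-caput difference of 0.75 ± 0.33 was not called (adjusted p = 0.118). Without P42 it was 1.11 and called (adjusted p = 7.57e-05).

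Spink14 gave 0 UMIs in 2 caput libraries and 11 UMIs (0.472 CPM) in the other, and 0 in 2 corpus libraries and 4 UMIs (0.340 CPM) in the other. In the cauda it reached 17.3, 376 and 341 CPM. The cauda was called against both other segments (adjusted p = 2.19e-05 against caput and 0.000237 against corpus), and the fitted size is not quoted because it rests on so few UMIs upstream. A count of 0 in the caput P42 library allows up to 0.215 CPM. Spink14 and Spink5 are adjacent on the chromosome and both were high in the P56 cauda, whereas Spink5 was also high in the caput, where Spink14 was near 0.

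Spint4, the Kunitz-type member, measured 124, 359.9 and 704 CPM in the caput, 3552, 5986 and 3281 CPM in the corpus, and 8.78, 5.00 and 3.30 CPM in the cauda. The corpus exceeded the caput by 3.66 ± 0.59 (adjusted p = 0.00187), and the cauda lay below the corpus by -9.50 ± 0.76 (adjusted p = 0.000334) and below the caput by -5.85 ± 0.67 (adjusted p = 0.000341). In the caput P42 library, 2 of 1748 principal-like cells held 66.2% of its 1735 UMIs, against 11.9% and 8.9% in the P56 caput libraries.

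Within principal-like cells the members were unevenly spread over clusters, which is described here without a test. In the caput, cluster 1, led by Ntsr2, Rnase13 and Lcn5, held 14.5%, 21.7% and 30.1% of principal-like cells and 66.3%, 78.1% and 86.6% of Spink11 UMIs. The same cluster held 50%, 73.7% and 83.8% of Spink2 UMIs and 35.8%, 56.2% and 71.6% of Spink12 UMIs. In the corpus, cluster 21, led by Defb23, B230312C02Rik and Spag11a, was the counterpart.

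Cluster 21 held 12.9%, 26% and 9.9% of the principal-like cells of the corpus. It accounted for 75.1%, 83.0% and 80.6% of their Spint4 UMIs and 74.4%, 87.2% and 77.7% of their Spink11 UMIs. Its Spint4 level was 16931, 24810 and 30771 CPM, against 2049, 1261 and 699 CPM in cluster 24, led by Defb26 and Defb22, which held 17.4%, 72.2% and 86.3% of the cells. In corpus P42 most cells (66.6%) were in cluster 27, where Spint4 stood at 846 CPM and Spink10 at 2738 CPM. The order of the corpus libraries in Spint4 over all principal-like cells differed from their order within cluster 21, where P56_2 was highest. Spink10 ran the other way, with 834, 1044 and 1276 CPM in cluster 21 and 2086, 3586 and 3384 CPM in cluster 24, while Spink8 was high in both (23589, 32940 and 34286 CPM in cluster 21).

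In the P56 cauda, cluster 26, led by Krt32, Klk1b26 and Svs4, contained 55.9% and 48.1% of principal-like cells and 86.5% and 85.1% of Spink14 UMIs. Spink14 stood at 572 and 598 CPM there, against 117 and 99.1 CPM in cluster 19, led by Gsta2 and Chrdl2. Spink5 was also higher in cluster 26 (1528 and 1706 CPM) than in cluster 19 (725 and 909.9 CPM), and Spink10 differed less (7187 and 7813 against 6343 and 7607 CPM). In the caput, Spink5 was as high in cluster 9, led by Lypd8 and Defb47 (829, 1276 and 1401 CPM), as in cluster 1 (711, 1251 and 1315 CPM). In caput P42, cluster 3, led by C1qtnf9 and Defb18, was higher, at 987 CPM, with 3394 of the 6826 Spink5 UMIs of principal-like cells.

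**Figure D2:**
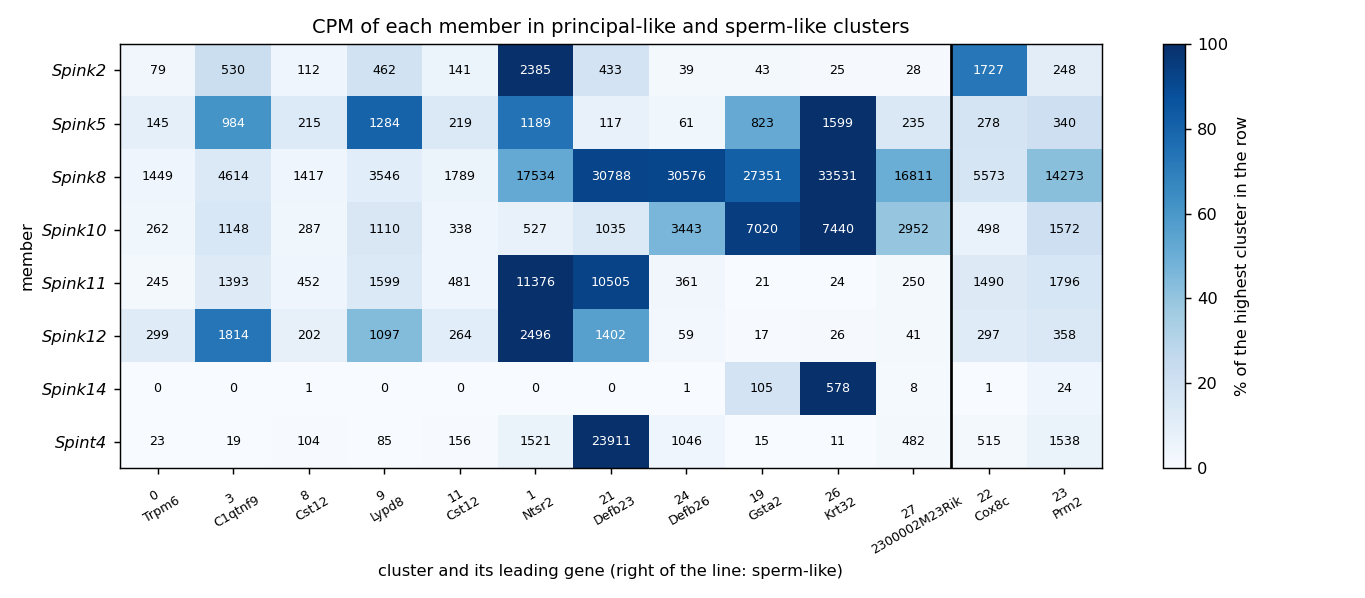
CPM of each member (rows) in the principal-like and sperm-like clusters (columns, named by number and leading gene), all libraries summed, with colour as a percent of the highest cluster in the row. The sums mix libraries of different level. Within each caput library, cluster 1 was the highest of those with at least 50 cells for Spink2, Spink11 and Spink12, as was cluster 21 for Spint4 within each corpus library and cluster 26 for Spink14 in both P56 cauda libraries, while Spink11 in cluster 21 of the corpus (7441, 12109 and 9572 CPM) lay above cluster 1 of the caput (6931, 11318 and 12957 CPM) in 2 of 3 pools.

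Over single cells, some of these genes went together. In principal-like cells thinned to 1000 UMIs, Spink11 and Spink12 correlated within each of 6 libraries with enough UMIs (Pearson r of cells from 0.446 to 0.674), and Spink2 and Spink11 in each of 4 (0.452 to 0.625). Spink8 and Spink11 correlated over cells in the 3 caput libraries (0.699, 0.798 and 0.850) and hardly in the 3 corpus libraries (0.150, 0.020 and 0.149), and Spink8 and Spink10 ranged from 0.084 to 0.452 over 9 libraries. Over the 74 sums of library and class described further on, the r of Spink8 was 0.945 with Spink10 and -0.223 with Spink11. Spink10 and Spink11 ranged from -0.537 to 0.050 over 6 libraries, and Spink2 and Spint4 from -0.060 to 0.008 over 4. These are descriptions over cells that share a library and clusters.

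Levels in other cell classes were mostly below those of principal-like cells, and free RNA, which puts UMIs of a gene into cells that do not express it, was not estimated. In the segment where principal-like cells held most of a gene, the level of the other named classes, as a percent of the principal-like level of the same library, had a median of 28.0% for Spink11, 29.1% for Spink2, 33.0% for Spint4, 36.1% for Spink12, 50.5% for Spink8, 54.8% for Spink10, 55.4% for Spink14 and 56.4% for Spink5. The classes differed among themselves, as Spink11 in the caput was at 13.2% to 15.7% in basal-like cells, 26.5% to 28.1% in myoid-like, 26.2% to 48.8% in endothelial-like and 28.5% to 49.4% in macrophage-like cells. The libraries differed too, as Spink10 in the cauda was at 8.21% to 16.8% in these 4 classes at P42 and 50% to 82.6% at P56. The principal-like level is an average over clusters. For Spint4, cluster 24 of the corpus alone held 2049, 1261 and 699 CPM. Basal-like cells of the corpus held 758, 1507 and 682 CPM, and myoid-like cells 1044, 3177 and 1227 CPM. The part of free RNA in these levels was not tested. Thinned to 1000 UMIs, Spint4 was seen in 57.0%, 58.0% and 37.2% of principal-like cells of the corpus and in 49.2%, 63.5% and 42.6% of myoid-like cells (unthinned 84.4%, 90.3% and 78.7% against 82.5%, 86.8% and 84.9%), at median depths of 3029.5, 5585 and 5722 against 3841, 3070.0 and 4995 UMIs. The thinned share of principal-like cells was below that of myoid-like cells in both P56 libraries and above it in P42. For Spink14 in the P56 cauda the thinned shares were 23% and 20.7% in principal-like and 19.7% and 21.1% in myoid-like cells. At 5 or more UMIs of 1000, Spint4 was found in 11.6%, 18.1% and 9.99% of principal-like and 2.85%, 9.90% and 5.98% of myoid-like corpus cells.

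**Figure D3:**
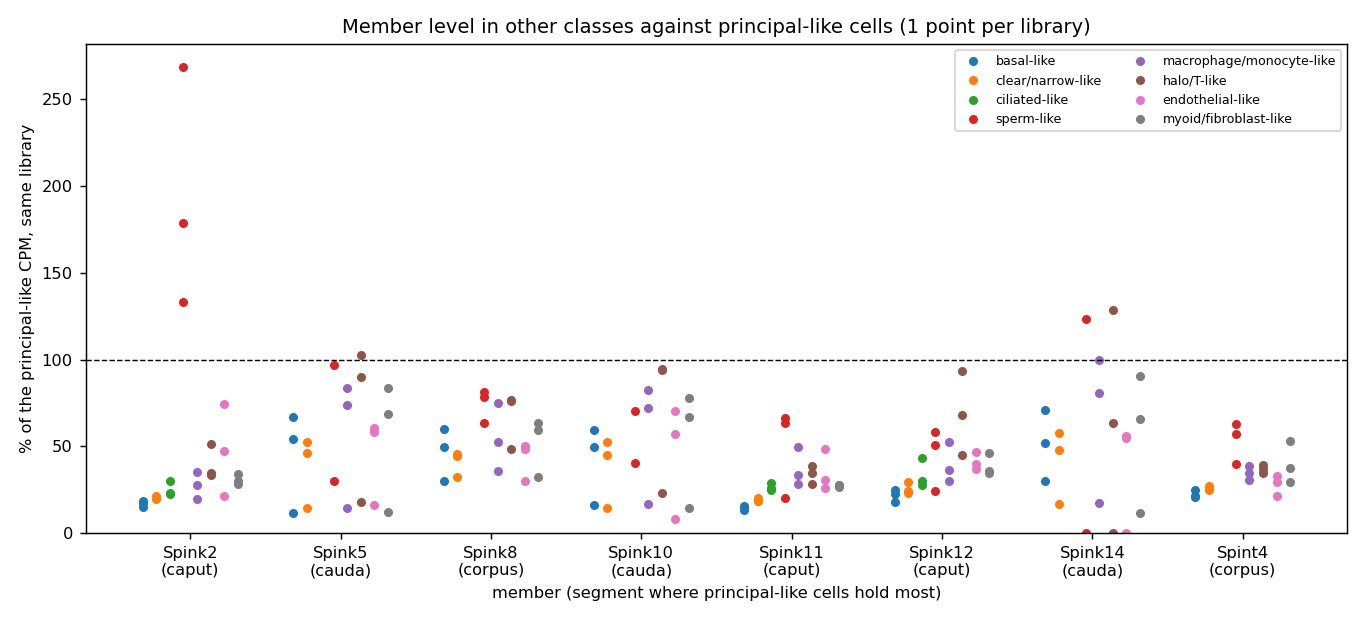
Level of each member in the other named classes as a percent of the principal-like CPM of the same library (dashed line at 100%), in the segment where principal-like cells hold most of that member, with 1 point per class and library. Sperm-like cells of the caput lie above the line for Spink2, up to 268%, and nearly all other points lie below it.

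Spink2 stood higher in sperm-like cells than in the average of principal-like cells of the same library in caput (268%, 179% and 133% of it) and in corpus P42 and P56_2 (279.8% and 382%), and about level in corpus P56_1 (105%, from 76 UMIs). Sperm-like cells of the caput, 14, 50 and 292 in number, held 1044, 1434 and 1146 CPM, and those of the corpus 213, 154 and 198 CPM. Against these values, which sum 2 sperm-like clusters, principal-like cluster 1 of the caput held more, with 1249, 2705 and 2547 CPM, as did cluster 21 of the corpus, with 277, 553 and 251 CPM. In sperm-like cells of the cauda the level was 12.3 CPM in P42 and 10.8 CPM in P56_2, from 2 UMIs and 1 UMI. The 2 sperm-like clusters differed: in caput P56_2, cluster 22, led by Cox8c and Ldhc, held 1949 CPM and cluster 23, led by Prm2 and 1700027A15Rik, 528 CPM. In the corpus, cluster 23 made up 138 of 149, 109 of 121 and 112 of 135 sperm-like cells. It held 20 of 118, 29 of 76 and 13 of 156 of their Spink2 UMIs. Most of these UMIs thus lay in the few cells of cluster 22, and cluster 21 did not exceed cluster 22 alone. Of the other members, Spink5, Spink8, Spink10, Spink11 and Spink12 stood at 20.6% to 68.0% of the principal-like level in sperm-like cells of the 3 caput libraries, and Spint4 at 8.16%, 37.2% and 100.5%.

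Some high values in small classes came from very few cells. The 45 macrophage-like cells of caput P56_2 showed 1733 CPM of Spint4, above the 704 CPM of principal-like cells, but 2 of these cells held 375 of the 410 UMIs. In the 14 halo/T-like cells of caput P56_1, 58 of 61 Spint4 UMIs lay in 2 cells. No doublet caller was run.

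Segment tests were also run in other classes. All 8 members were called over the segments in basal-like cells (14.3% of genes) and in sums of all cells (24.8%), and 7 of 7 tested in clear/narrow-like cells (13.9%) and in sperm-like cells (29.3%, 8 libraries with at least 10 such cells). In basal-like cells Spint4 was higher in corpus than caput by 3.48 ± 0.52 (adjusted p = 0.000697), close to its value in principal-like cells, at 758, 1507 and 682 CPM against 3552, 5986 and 3281 CPM. Corpus cells with a Spint4 UMI, unthinned, were 82.8%, 92.4% and 74.9% of basal-like and 84.4%, 90.3% and 78.7% of principal-like cells. The part of free RNA in the segment calls of these other classes was not tested. In sums of all cells, fewer cells of a type and less RNA per cell cannot be told apart. Leaving out P56_1 reduced the calls to 5 members in all cells, 5 in basal-like and 4 in clear/narrow-like cells, with Spink5, Spink8 and Spink10 lost in each, and leaving out P56_2 reduced them to 5, 6 and 5. Calls over all genes also moved with the pool left out. They ranged from 614 to 7438 in all cells, 469 to 2539 in basal-like and 469 to 2335 in clear/narrow-like cells.

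Between ages, most calls among the members were in the cauda. In principal-like cells, P56 was compared with P42 in each segment, and 6 of 8 members were higher at P56 in the cauda (20.5% of genes called, 8.11% higher), 1 in the corpus (2.58%, 0.81% higher) and 1 in the caput (1.02%, 0.496% higher). With a block for the P56 pools, Spink2 was called in the caput as well (1.65, adjusted p = 0.0332). In the cauda the increase was 5.19 ± 0.50 for Spink14 (adjusted p = 0.000137), 2.30 ± 0.23 for Spink8 (adjusted p = 0.000167), 2.27 ± 0.23 for Spink5 (adjusted p = 0.00018), 2.01 ± 0.22 for Spink10 (adjusted p = 0.000282), 1.83 ± 0.53 for Spink2 (adjusted p = 0.0269) and 1.57 ± 0.50 for Spink12 (adjusted p = 0.0411). Spink11 (0.18 ± 0.47) and Spint4 (-0.27 ± 0.54), both low in this segment, were not called. With DESeq2, Spink14 had 5.17 ± 4.30 and was not called (adjusted p = 0.461), from 77 UMIs at P42 and 6851 and 6941 at P56.

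These age values depend on the scaling and on which cells stand for P42. TMM scaling, used in the main test, set the median of all genes near 0, and plain CPM scaling moved that median to -0.76 in the cauda, -0.45 in the corpus and -0.29 in the caput, and the higher calls from 39.6% to 4.04%, from 31.3% to 4.56% and from 48.6% to 17.6% of all calls. On plain CPM, Spink14 (4.37), Spink8 (1.49), Spink5 (1.46) and Spink10 (1.20) were still called in the cauda, while Spink2 (1.02) and Spink12 (0.75) were not. The cauda P42 library carried 1691 principal-like cells, whose summed myoid, fibroblast and principal markers and low UMI numbers are given above, and their summed macrophage and monocyte markers, 15 of 15 detected, were 3044 CPM against 94.0 and 200 CPM at P56; the part of these in the age values was not tested. In principal-like cells with at least 2000 UMIs, of which this library had 547, Spink5, Spink8 and Spink10 were higher at P56 by 1.98, 2.08 and 1.74, each called, as were Spink2 (1.71) and Spink14 (4.84), while Spink12 was not (1.55, adjusted p = 0.0562). Doubled cluster resolution left 80 principal-like cells in this library, and the 3 genes were called at 3.24, 3.17 and 2.96, while without library centring 17 such cells were left, and the genes were called at 2.05, 2.14 and 1.73. Without centring, 1979 cells of this library lay in a cluster that stayed unnamed, although the share of principal markers enriched in it was 0.929. Spink2 (2.01 and 0.44) and Spink12 (1.27 and 1.67) were not called under either clustering, with SEs of 1.04 to 1.70.

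In the caput, Spint4 was higher at P56 by 2.37 ± 0.45 (adjusted p = 0.045), with 124 CPM at P42 and 359.9 and 704 CPM at P56. At P42, 2 of 1748 cells held 1149 of the 1735 UMIs (66.2%), against 11.9% and 8.9% in the top 2 cells of the P56 libraries. This call was lost with doubled cluster resolution (2.53), without library centring (2.46) and with the unnamed clusters counted as principal-like (1.74), which brings in 119 caput P42 cells with 1072 Spint4 UMIs, 1050 of them in 2 cells. Clusters 0 and 3 held 746 and 426 of the 1748 caput P42 cells and no caput P56 cell. Cluster 1 had 253, 730 and 954 caput cells, with 1481, 5100 and 14209 Spint4 UMIs. Each caput age value thus compares different clusters, and the part of this was not tested. In the corpus, Spink8 was higher at P56 by 1.04 ± 0.22 (adjusted p = 0.0354), and lost the call on plain CPM (0.57) and under both other clusterings (0.99 and 0.96). Other members gained one there: Spink5 was called with doubled resolution (1.18, adjusted p = 0.0206) and with the unnamed clusters counted in (1.19, adjusted p = 0.017), and Spink10 without centring (1.37, adjusted p = 0.041) and with the unnamed clusters (1.01, adjusted p = 0.0419), so which members were called in the corpus changed with the clustering. The principal-like cells of corpus P42 lay mostly in cluster 27 (66.55%, against 0% and 0.11% in the P56 corpus libraries), and their summed myoid and fibroblast markers were 1913 CPM against 263 and 241 CPM, so the ages compare different clusters, and the part of this in the value was not tested. Summed over all cells, 2 members were called higher at P56 in the caput (3.51% of genes called, 0.915% higher), 3 in the corpus (10.6%, 2.76% higher) and 6 in the cauda (32.2%, 12.9% higher). On plain CPM these counts were 0, 1 and 6, where over all genes 119 of 1549, 101 of 3914 and 925 of 8405 calls were higher. With a block for the P56 pools 5 members were called in the caput, where calls over all genes rose as well, as given further on. The age difference itself differed between segments for 3 members in principal-like cells (10.8% of genes) and 3 in all cells (14.3%), Spink5, Spink8 and Spink10 in both.

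**Figure D4:**
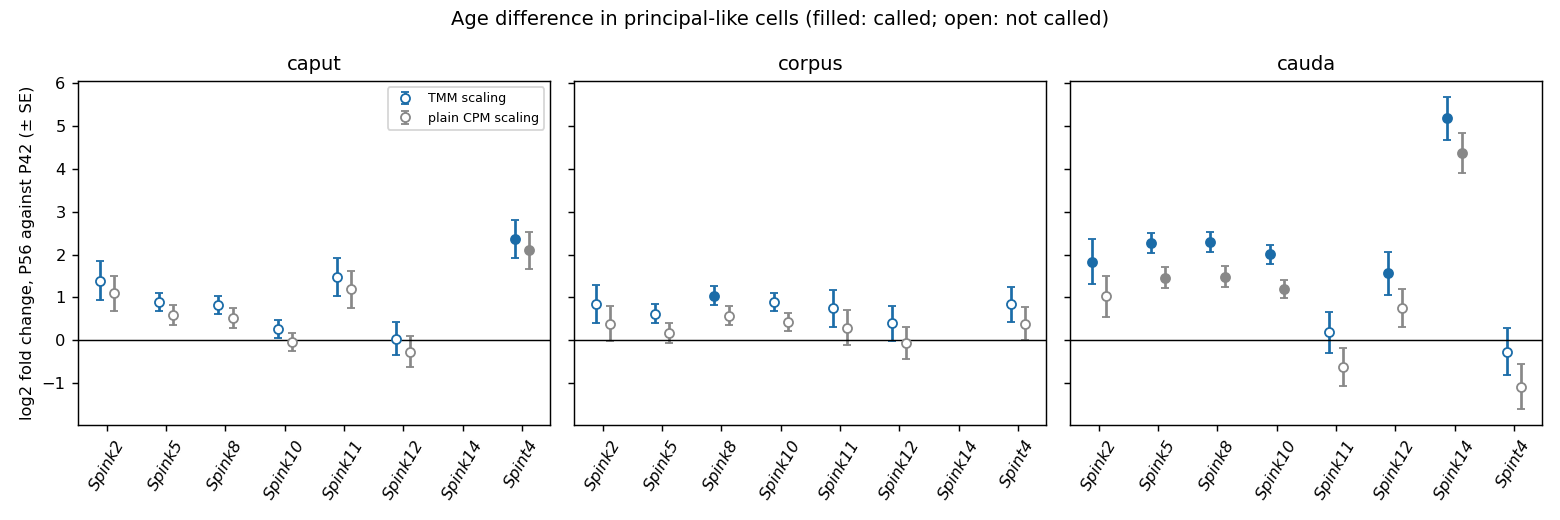
Log2 fold change of P56 against P42 with its SE for each member in principal-like cells of caput, corpus and cauda, with TMM scaling (blue) and plain CPM scaling (grey). Filled points passed the test, which in the cauda is 6 members with TMM and 4 on plain CPM, and Spink14 is drawn in the cauda alone because it was near 0 elsewhere.

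Genes other than the members whose levels followed a member most closely over 74 sums of library and cell class (Pearson r of log2(CPM + 1), 7793 genes, sums that share libraries) were found for each. Spint4 was followed by Spint5, another Kunitz-type gene (r = 0.98), Defb23, a beta-defensin (0.95), and BC048679 (0.91). Spink10 was followed by Ptgds, a prostaglandin D synthase (0.99), Ces5a, a secreted carboxylesterase (0.96), and Wfdc15b (0.96), and Spink8 by Ces5a (0.98), Cuzd1 (0.97) and Isg20 (0.96). Spink11 and Spink12 had beta-defensins first (Defb30, 0.96, and Defb42, 0.96), and Spink5 had Pate6 (0.93) and Lcn12 (0.87). Spink14 had 9230019H11Rik (0.92), Azgp1 (0.88) and Smpx (0.87). The closest of these to Spink2 were Lrcol1 (0.822), Gpr45 (0.82) and Rnase13 (0.82), the lowest first values among the members. The member Spink12 lay closer to Spink2 (0.828).

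Other genes with Kazal or Kunitz domains were read from a list of 33, of which 22 could be tested in principal-like cells and 13 were called over the segments (34.1% of all genes). Between corpus and caput 7 were higher and 2 lower (25.4% of all genes called), between cauda and caput 8 and 4 (25.6%), and between cauda and corpus 4 and 3 (12.6%). The median log2 fold change of the 22 was -0.20, 0.76 and 0.47, against -0.02, -0.01 and 0.01 over all genes. Spint5 was highest in the corpus, with 1813, 2209.8 and 1258 CPM, against 36.7, 122 and 224 CPM in the caput and 4.05, 10.7 and 3.35 CPM in the cauda. Spint3 stood at 39.3, 40.2 and 50.6 CPM in the caput, 1890.4, 3150.1 and 3155 CPM in the corpus and 851, 2610.4 and 2468 CPM in the cauda. Spock1, which encodes a proteoglycan with a Kazal-like domain, was lower in corpus than caput by -3.75 ± 0.39, Smoc1, an extracellular matrix protein, was higher in cauda than caput by 4.36 ± 0.30, and Spink4 was lower in cauda than caput by -5.04 ± 0.83, each with an adjusted p of at most 0.00216.

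Serine proteases, the class of enzyme these inhibitors act on, were read from a list of 36, with 13 tested and 10 called over the segments (34.1% of all genes). Between cauda and caput 8 were higher and 1 lower (25.6% of all genes called), between corpus and caput 3 and 2 (25.4%), and between cauda and corpus 4 and 0 (12.6%). Their median log2 fold change from caput to cauda was 2.35, against -0.01 over all genes. Ovch2, ovochymase 2, a protease of the proximal epididymis, had 732, 567 and 568 CPM in the caput and at most 3.15 CPM in corpus and cauda. Plau, the urokinase plasminogen activator, was higher in the corpus than the caput by 3.84 ± 0.20 (adjusted p = 8.13e-06). Klk1b27, a glandular kallikrein whose reads are hard to tell from its close paralogs, was higher in the cauda than the caput by 6.91 ± 0.58, as was Prss22 (2.95 ± 0.75), and Prss27, with 1 UMI over the 3 caput libraries, had 1.12, 2.31 and 2.02 CPM in the cauda. In the ages, the inhibitor list had 15 of 27 called in the cauda, 5 higher and 10 lower at P56, 3 in the corpus and 0 in the caput, and the protease list 4 of 15 in the cauda, 2 in each direction. The summed myoid and fibroblast markers (16989 CPM at P42 against 507 and 484 at P56) and macrophage and monocyte markers (3044 against 94.0 and 200 CPM) of the cauda cells were also lower at P56, beside the 10 lower genes of the inhibitor list, which include Fst, encoding follistatin (36.5 against 0.989 and 1.08 CPM), and Smoc1 (31.7 against 6.21 and 9.20 CPM), and their part in these counts was not tested. Over all genes 20.5% were called in the cauda, 2.58% in the corpus and 1.02% in the caput, and the lists were not counted on plain CPM, where the higher calls of all genes in the cauda went from 39.6% to 4.04% of calls.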

How the data were processed

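Single-cell RNA-seq of 9 epididymis libraries was deposited by the authors as 1 table of UMI counts per gene and cell, made, per the labels and the study's methods, with UMI-tools, STAR 2.7.3a, GRCm38.p6 and featureCounts, without further normalization. Columns numbered 0 were read as P42, the age with no replicate number in the sample titles. Member genes and gene lists were chosen with earlier results of these data known. Cells with 300 to 4000 genes, at most 20000 UMIs and under 50% mitochondrial UMIs were kept (42087). A globin-rich cluster of 686 cells was removed, which left 41401. Globin genes were left out of totals, and no doublet caller was run.

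Cells were clustered with scanpy 1.11.5 (3000 variable genes, 50 principal components after centring each library, 20 neighbours, Leiden resolution 1, 30 clusters). A cluster took the name of the class of which at least 0.5 of the markers were 1.5-fold higher in it than in the rest of its library, and a cluster left over was named principal-like where at least 3 principal markers were that much higher than in the clusters named first. The unnamed clusters, led by cell-cycle and immunoglobulin genes, had at least 4 such markers, as had cluster 26, which was named. Without centring, a cluster with 1979 cauda P42 cells (share of principal markers enriched 0.929) also stayed unnamed. So did another, with 1508, 1082 and 673 corpus cells. The limits given here do not account for these clusters staying unnamed. These limits were set after seeing the data. Sums of library and named class with under 10 cells were left out, which was the case for sperm-like cells of cauda P56_1 (6 cells) and left 74.

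UMIs were summed per library and class and tested with edgeR 4.0.16 (R 4.3.3; quasi-likelihood, filterByExpr, TMM, Benjamini-Hochberg over all genes). A call needed an adjusted p under 0.05 and a change of at least 1 log2 unit, and segment by age the adjusted p alone. Segment fits were blocked on mouse pool, because the caput, corpus and cauda of 1 pool are from the same animals. Deviations from the segment means, taken over both ages, correlated at r of 0.028 to 0.597 between libraries of a pool in principal-like cells and -0.544 to 0.390 between pools. These values include the age difference, and deviations from a mean of few libraries tend to be negative between pools. They cannot separate the pairing by animals from age. Ages were compared with a mean per segment and age, so the spread comes from the P56 pairs alone. Libraries are pools of 5 mice. Segment p-values measure the spread left after the pool block, and age p-values hold no spread between P42 pools. Intervals and floors (3 counts) cover counting error only. The genes named beyond the members were the 5 of each list with the widest range over the segments among those called, and the 3 genes nearest to each member in pattern. Alternatives were DESeq2 1.42.0, no filter, TMM factors set to 1, no pool block, leaving out each pool, other clusterings, a minimum of 2000 UMIs, other mitochondrial limits, and, added after seeing the data, unnamed clusters counted as principal-like.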

Additional observations from a re-analysis of the deposited data

Results flagged for a closer look

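The difference between P56 and P42 in principal-like cells was not the same in the 3 segments for 3 members, by a test of the difference itself (edgeR quasi-likelihood, Benjamini-Hochberg over all genes, which called 10.8% of genes). The range of log2 fold changes over the segments was 1.65 for Spink5 (adjusted p = 0.0175), 1.49 for Spink8 (adjusted p = 0.0239) and 1.74 for Spink10 (adjusted p = 0.0153), with the highest value in the cauda for each. On plain CPM scaling the ranges were 1.30, 0.97 and 1.24, and Spink10 alone of these stayed called (adjusted p = 0.0427), while Spint4 was called at 3.18 (adjusted p = 0.0215). In cells with at least 2000 UMIs, Spink10 was the only member called (1.48, adjusted p = 0.0396), and without library centring no member was. The low UMI numbers and the myoid and macrophage markers of the principal-like cells of cauda P42 move with these values, and their part in them was not tested. Groups held 1 or 2 libraries, too few to test a single library as an outlier.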

How the results depend on the processing

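Of 344 alternatives to counts and levels, 269 kept the value within its limits and 75 moved it, by limits that are not stated here. Of 516 alternatives to fold changes of single members, 460 left the direction and the call as they were, 21 lost a call, 13 gained one, 14 turned the direction of a value that was not called, and 8 moved a value, again by limits not stated here. Leaving out each pool in turn, genes called over the segments ranged from 614 to 7438 in all cells (5 to 8 members), 2579 to 6913 in principal-like (7 to 8), 469 to 2539 in basal-like (5 to 8), 469 to 2335 in clear/narrow-like (4 to 8) and 1015 to 2020 in sperm-like cells (7 to 8). In principal-like cells they ranged from 2233 to 4890 between corpus and caput (5 to 6 members), 2094 to 5266 between cauda and caput (6 to 8) and 385 to 2994 between cauda and corpus (5 to 7). Age fits without a P56 pool have no residual degrees of freedom and gave values only.

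Without the expression filter, genes called rose to 2983 between cauda and corpus in principal-like cells, 2499 in basal-like cells, 2626 in clear/narrow-like cells, and, for ages, 1663 in the caput in all cells (5 members), 675 in the caput (3 members) and 1190.0 in the corpus in principal-like cells, and 3935 for segment by age (7 members), and members called in the corpus in all cells rose to 5. On plain CPM, ages called 1549 genes in the caput in all cells (0 members), 3914 in the corpus in all cells (1 member), and 346 in the caput and 1251 in the corpus in principal-like cells (0 members in the corpus). With a block for the P56 pools, ages called 1551 genes in the caput in all cells (5 members), and 389 in the caput (2 members, Spint4 and Spink2) and 806 in the corpus in principal-like cells. DESeq2 called 4 members for age in the caput in all cells. Doubled resolution gave 123 genes in the caput (0 members), 2054 in the cauda and 996 for segment by age. No centring gave 123 (0 members), 187 in the corpus, 607 in the cauda, 23 for segment by age (0 members) and a mean corpus Spint4 level of 6210.3 CPM. The clusters left unnamed without centring, described above, are outside these values. A minimum of 2000 UMIs gave 2457 genes in the cauda and 1057 for segment by age (1 member). With unnamed clusters counted as principal-like, ages called 104 genes in the caput (0 members) and 3 members in the corpus. Where members stand here without a count of genes, the share over all genes is not given, and they are not read as a result about the members. The cause of these changes was not tested.

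Values that turned direction were Spink8 between cauda and corpus without the replicate block (0.02) and when 1 pool was left out (from -0.41 to 0.18, the latter without P42). Without P56_1, the corpus values of P56 against P42, which then have no test, were -0.07 for Spink2, -0.08 for Spink11 and -0.36 for Spink12. On plain CPM they were P56 against P42 for Spink10 (-0.04) and Spink12 (-0.27) in the caput, Spink12 in the corpus (-0.07) and Spink11 in the cauda (-0.63). Spink12 in the caput was -0.05 with unnamed clusters added. Without centring they were Spink2 (-0.05), Spink11 (-0.50), Spink12 (-0.93) and Spint4 (-0.42) in the corpus and Spint4 in the cauda (0.31), which was also 0.70 at doubled resolution and 0.58 with at least 2000 UMIs. Dropping the replicate block ended 1 segment call of a member in principal-like cells, Spink2 between cauda and corpus (-1.50).

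Shares of principal-like cells with a UMI rose with depth. Unthinned, the mean share was 61.0% for Spink2, 84.2% for Spink11 and 82.6% for Spink12 in the caput, 84.5% for Spint4 in the corpus, and 75.9% for Spink5 and 39.4% for Spink14 in the cauda. Thinned to 2000 UMIs it was 38.8% for Spink2, 61.4% for Spink11, 59.0% for Spink12 and 63.8% for Spint4. Spink8 in the corpus was at 100% in both and at doubled resolution. With 1 library per segment at P42, age calls rest on the spread between the P56 pairs.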
